A study of Mus musculus with 36 samples.

Results

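Rgs16 encodes a regulator of G protein signalling and was followed here through regeneration of mouse liver in young and old animals. It is 1 gene of the 21955 gene symbols in each count table, and it was taken as the row carrying that symbol. It was chosen because its counts in young liver at the time point labelled 48 were close to none, so its level there and its distance from the young level before regeneration are given as a description and carry no test. RNA was sequenced from liver of C57BL/6JN mice, an inbred laboratory strain, with the young animals aged 4 months and the old ones 18 months. At each age, tissue was taken before regeneration and at time points labelled 48, 72, 96, 120 and 240, and each of these 12 groups had 3 libraries, described as biological replicates. The old animals were named as the treated group and the young ones were the reference. The labels give no unit for the time points, no way in which regeneration was started, and no time of day or feeding state at collection.

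RGS proteins bind active G protein alpha subunits and speed up their hydrolysis of GTP, which shortens signalling from G protein coupled receptors. RGS16 acts on the Gi and Gq classes. In liver its transcript is known as a gene of hepatocytes, mainly those near the portal vein, whose level follows feeding and fasting and the time of day, and ChREBP, the transcription factor through which glucose raises glycolytic and lipogenic genes, is known to drive it. The genes set beside it are therefore the RGS family, the G protein alpha subunits and receptors, the carbohydrate response genes, the insulin and fasting genes and the circadian clock.

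Rgs16 lies on the forward strand of chromosome 1, from 153740349 to 153745468 in GRCm38. The GENCODE M21 annotation gives it 1 transcript of 5 exons with 2339 exon bases, of which 606 are coding with the stop codon. Its last exon, from 153743634 to 153745468, holds most of the exon sequence and the 3′ UTR from 153743853 to 153745468. The antisense gene Gm28513 runs over that exon on the reverse strand, with 236 of its own exon bases inside it. Gm28513 had no row in the tables, and no strand setting for the counting was stated, so reads of the antisense RNA cannot be told apart from reads of Rgs16 in that stretch. The sequence just upstream of the gene is shown because the clock and carbohydrate response genes below are known to be driven through short promoter motifs. It covers chr1:153740103-153740348 (GRCm38.p6, forward strand, RefSeq), ends at the base before the annotated start, and has the motif matches in capitals:
Rgs16 upstream: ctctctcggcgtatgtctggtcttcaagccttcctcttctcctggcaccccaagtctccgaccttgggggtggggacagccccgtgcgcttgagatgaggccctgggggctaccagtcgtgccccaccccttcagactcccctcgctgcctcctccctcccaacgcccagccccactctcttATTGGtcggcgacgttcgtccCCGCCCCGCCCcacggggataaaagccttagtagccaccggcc
Motifs were searched on both strands of the 300 bases from 250 before to 50 after the RefSeq start. The first capitals are a CCAAT box on the reverse strand, a motif that 37.4% of 32851 mouse promoters of the same length hold. The second run holds 2 overlapping GC boxes (GGGCGG, reverse strand), a motif found in 35.7% of them. These letters did not include an E-box (CACGTG, 7.15% of promoters), a D-box (TTATGTAA or TTACGTAA, 1.06%), a cAMP response element (TGACGTCA, 1.79%), a TATA box (TATAAA, 13.6%), a nuclear receptor core motif (AGGTCA, 16.3%) or the carbohydrate response element (0.0274%). The carbohydrate response element as searched matched 9 of the 32851 promoters, so its absence here says little. Bases outside the window were not searched. The window has a GC content of 66.0%, above that of 83.8% of the promoters.

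Total counts ranged from 2328233 to 6034446 a library, with a median of 4439170, so 3 counts corresponded to between 0.490 and 1.29 CPM (counts scaled to a common library total after TMM normalization). The intervals and the level of 3 counts given here cover counting error only. Y-linked transcripts were present in 12 libraries, 1 in every group, at 180.4 CPM or more, and stood at 0.211 CPM or less in the other 24, a split that the labels do not give. Xist stood at 2804 to 4104 CPM in those 24 and at 2.92 CPM or less in the 12. The labels give no sex. Summed CPM of 11 measured hepatocyte marker genes was 66490 to 74410 in young liver before and 67980 to 76810 in young liver at 48. In these bulk libraries fewer cells of a type and less RNA per cell cannot be told apart.

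Before regeneration Rgs16 was among the more abundant liver transcripts at both ages. The 3 young libraries had 709.9, 902.8 and 510.2 CPM, a mean of 708 ± 196 CPM (SD, n = 3), and the 3 old libraries had 615.6, 771.6 and 942.0 CPM, a mean of 776 ± 163 CPM. The ranges of the 2 ages overlapped. Per kilobase of exon, its mean level ranked 129 of 12938 genes with a known length in young and 112 in old liver.

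In young liver at 48 almost no Rgs16 was counted. The libraries held 3, 3 and 2 counts, or 0.490, 0.776 and 0.493 CPM, a mean of 0.586 ± 0.164 CPM (SD, n = 3). All 3 therefore lay at or below the level of 3 counts. The pooled counts were 9149 before and 8 at 48, a ratio of 1239 with an exact 95% interval for counting error of 629 to 2872. Its fitted change from before was the lowest of all 13436 genes tested, and per kilobase its rank went to 12389 of 12938. Summed hepatocyte markers overlapped between these 2 groups, as given above. Of the zone markers, the summed level of 13 periportal genes was 5999 to 6946 CPM before and 3691 to 4379 CPM at 48, and that of 14 pericentral genes was 8034 to 9087 CPM before and 5497 to 6039 CPM at 48, with none of these genes at 0. Called at 48 were 1 of 12 tested periportal genes, lower, and 2 of 14 pericentral genes, 1 lower and 1 higher. Of all genes, 9.79% were called lower and 12.2% higher. The part of these markers in the level of Rgs16 was not tested.

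The transcript then returned in part in young liver. At 72 the libraries had 6, 1 and 15 counts, or 1.15, 0.243 and 3.82 CPM (mean 1.74 ± 1.86 CPM, n = 3). At 96 they had 32.9, 75.4 and 32.6 CPM (mean 47.0 ± 24.7 CPM), and at 120 they had 32.7, 94.1 and 46.0 CPM (mean 57.6 ± 32.3 CPM). Every library at 96 and 120 thus stood above every library at 48 and 72. At 240 the libraries had 64.5, 113.1 and 274.3 CPM (mean 150.6 ± 109.8 CPM), which was 21.3% of the mean before and still below the lowest library before. The change over 72, 96, 120 and 240 passed the F test over these groups (adjusted p = 0.0365, against 4% of all genes tested). Its contrast leaves out the samples before and those at 48. The spread behind it was estimated over all groups in the fit, these included. That call was lost in a fit without the filter on low counts (adjusted p = 0.0615), and also without any of the 3 libraries at 72 (0.194, 0.226 and 0.0605 without replicates 1, 2 and 3), without replicate 2 at 240 (0.0531) or without replicate 3 at 240 (0.109).

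**Figure D1:**
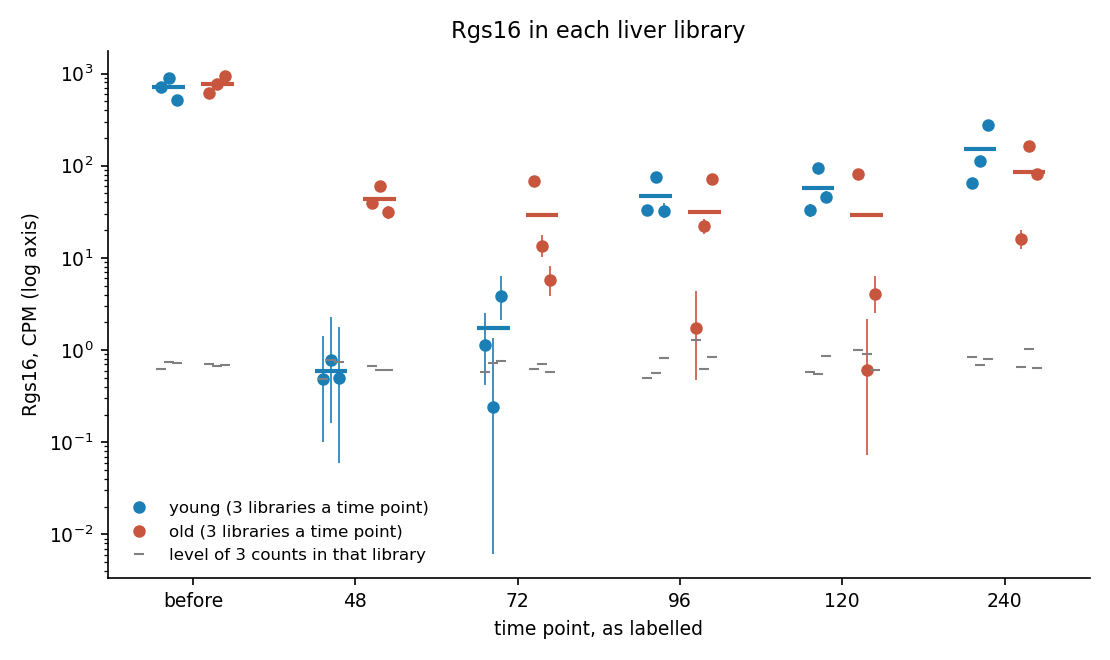
Rgs16 in CPM on a log axis in each of the 36 libraries, by labelled time point, young in blue and old in red, with 3 points a group, thick bars at the group means, thin vertical lines for exact 95% Poisson intervals (counting error only) and grey dashes at the level of 3 counts in that library. The young libraries at 48 lie between 0.490 and 0.776 CPM at or below the dashes, while the old ones at 48 lie between 31.3 and 61.0 CPM.

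In old liver Rgs16 fell as well, to a less extreme level at 48 and with a wide spread later. At 48 the libraries had 39.8, 61.0 and 31.3 CPM (mean 44.0 ± 15.3 CPM, n = 3), a log2 change of -4.14 ± 1.12 (SE) from before (adjusted p = 0.00974). Among all genes tested, 12% were called lower in that comparison and Rgs16 had the change ranked 31 from the lowest. All old libraries at 48 were below all old libraries before. Summed periportal markers were 5345 to 6853 CPM in old liver before and 2771 to 3627 CPM at 48, and summed pericentral markers 5264 to 6289 and 1475 to 4642 CPM, with none of these genes at 0. Called lower were 7 of 12 tested periportal genes and 4 of 14 pericentral genes, against 12% of all genes. Another 2 pericentral genes were called higher, against 12.1% of all genes. Summed hepatocyte markers overlapped, at 53460 to 70070 and 51770 to 74070 CPM. Their part in the change of Rgs16 was not tested.

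The later old groups held both high and almost empty libraries. At 72 the values were 68.1, 13.6 and 5.74 CPM (mean 29.2 ± 34.0 CPM), a log2 change of -4.73 ± 1.16 (adjusted p = 0.00881, with 5.81% of genes called lower). At 96 they were 1.72, 22.1 and 71.4 CPM (mean 31.8 ± 35.9 CPM), a log2 change of -4.59 ± 1.16 (adjusted p = 0.0177, with 3.07% of genes called lower). The lowest of these, with 4 counts, was the library of lowest depth. At 120 they were 81.9, 0.607 and 4.09 CPM (mean 28.9 ± 46.0 CPM), a log2 change of -4.78 ± 1.17 (adjusted p = 0.0223, with 2.02% of genes called lower). The highest of the 3 libraries at 120 was thus 134.8 times the lowest, which held 2 counts. At 240 the values were 15.8, 161.7 and 81.8 CPM (mean 86.4 ± 73.0 CPM), a log2 change of -3.18 ± 1.07 that did not pass (adjusted p = 0.375, where 0.156% of genes were called and 0.141% called lower). All 3 libraries lay below those before, and the share of all genes with such a separation is not given here.

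Over the 6 time points together, Rgs16 changed in old liver (F test, adjusted p = 0.00118, with 20.5% of all genes called). Its biological coefficient of variation was 85.6%, against a common value of 24.7%. The calls in old liver varied with the groups in the fit. Fitted to the old groups alone, none of the 4 was made (adjusted p = 0.0692 at 48, 0.0811 at 72, 0.126 at 96 and 0.160 at 120), and the F test gave 0.0630, with log2 changes of -4.12, -4.71, -4.58 and -4.75. Fitted to the 2 groups compared, the calls at 48 (adjusted p = 0.0136) and 72 (0.0497) were made and those at 96 (0.118) and 120 (0.286) were not. Without single libraries the call at 48 held, that at 72 was lost without old 72 replicate 3 (0.0532), that at 96 without old before replicate 3 (0.0610) or old 96 replicate 1 (0.0882) or 2 (0.0930), and that at 120 without old before replicate 2 (0.0529) or 3 (0.0839) or old 120 replicate 2 (0.0741) or 3 (0.0611).

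Library ranges of the 2 ages did not overlap at 48 and 72 but did afterwards. The share of all genes separated in this way is not given here. At 48 the pooled counts were 633 in old and 8 in young, a ratio of 77.6 with a counting interval of 39.1 to 180.5, and no library of one age reached the range of the other. This contrast shares the young libraries that led to the choice of Rgs16 and was not tested. At 72 every old library was again above every young one, with a log2 difference of 4.09 ± 1.38 and an unadjusted p of 0.00663, but the adjusted p was 0.675 and no gene in the table was called at that time point (0%). From 96 on, the young means were higher than the old, by a log2 of -0.54 ± 1.04 for old minus young at 96 (adjusted p = 0.879, with 0.171% of genes called), -1.04 ± 1.05 at 120 (0.805, with 0% called) and -0.81 ± 1.01 at 240 (0.999, with 0.0149% called). Averaged over 72 to 240 the difference was 0.43 ± 0.57 (adjusted p = 0.761, with 3.21% called), and without old 120 replicate 1 it turned to -0.43. None of these differences passed the test.

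Ordered by mean, the groups ran from old before and young before through young 240, old 240, young 120, young 96, old 48, old 96, old 72 and old 120 to young 72 and young 48. The only neighbours in this order whose ranges did not overlap were young before and young 240. Per kilobase of exon the mean ranked 2203 of 12938 genes in old liver at 48, 636 in young liver at 240 and 1137 in old liver at 240.

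Within the RGS family, Rgs16 made up nearly all transcripts per exon length before regeneration. It held 93.8% of the summed CPM per kilobase of 20 RGS genes in young and 92.3% in old liver. At 48 its share was 1.21% in young and 46.7% in old liver. Rgs5, an RGS gene of pericytes, then led in young liver with 42.6% and a level of 8.85 CPM per kilobase, against 6.06 before. Rgs5 itself did not pass the test at 48 in young (log2 change 0.54 ± 0.34, adjusted p = 0.265) or old liver (0.60 ± 0.34, adjusted p = 0.189).

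**Figure D2:**
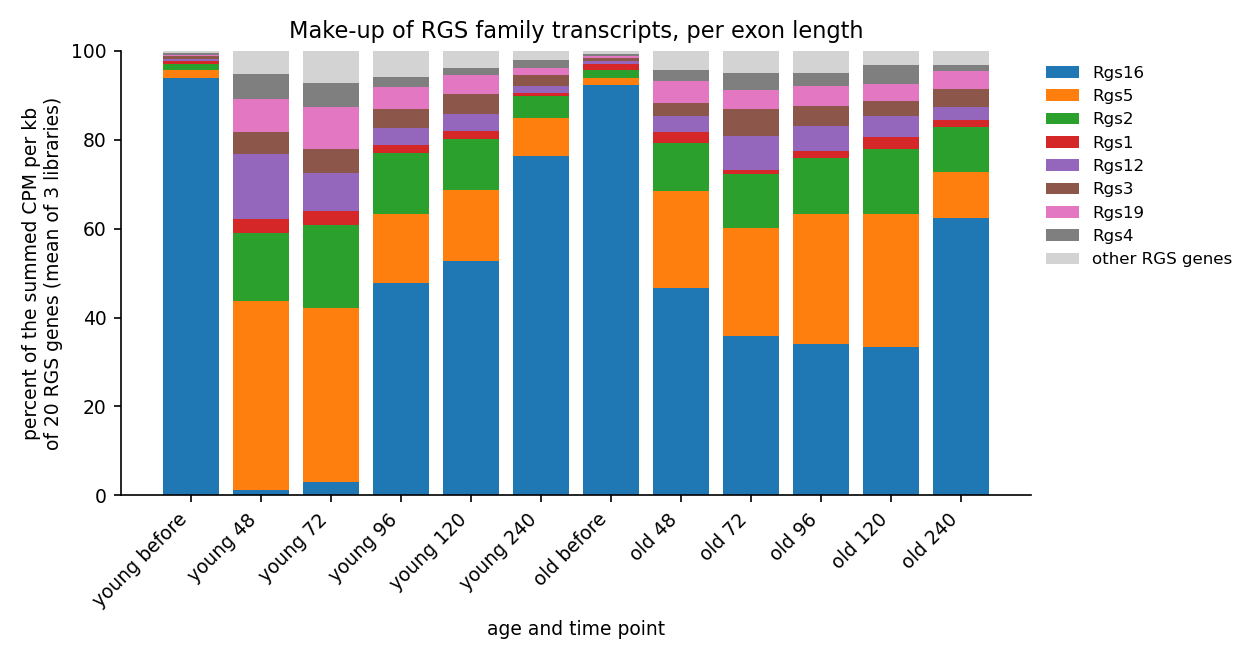
Stacked bars of the percent that each RGS gene makes of the summed CPM per kilobase of exon of 20 RGS genes, mean of 3 libraries, for the 12 groups. Rgs16 goes from 93.8% to 1.21% between young before and young 48, and from 92.3% to 46.7% between old before and old 48.

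Of the other RGS genes, 3 were called at 48 at each age. Of 20 listed, 19 were measured and 9 tested. At 48 in old liver 3 were called, all lower, where 24.1% of all genes were called. They were Rgs1, an RGS gene of lymphocytes (log2 change -2.28 ± 0.49), Rgs3 (-1.32 ± 0.46) and Rgs8 (-4.48 ± 0.93). In young liver at 48, where 21.9% of all genes were called, Rgs1 (-2.13 ± 0.52) and Rgs8 (-5.46 ± 1.02) were lower and Rgs12 was higher (1.5 ± 0.34). The list's median log2 change was -0.54 in old and -0.30 in young liver, against 0.01 and -0.01 over all genes. Rgs12 was the member called between ages at 48, lower in old (-1.09 ± 0.33, adjusted p = 0.0262, with 11.2% of genes called). That call was lost in a fit of the 2 groups alone, which called 1 of 12208 genes in all. It was also lost without any of young 48 replicates 1, 2 and 3 or old 48 replicate 1. Each of these fits left 0 of the 9 called. The count was also 0 without the libraries with Y-linked transcripts. In old liver at 48, 0 of the 9 were called with only the 2 groups fitted and 1 with the old groups alone.

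Rgsl1, an RGS-like gene outside the list, lies 33912 bases beyond the end of Rgs16, on the reverse strand. Of the listed RGS genes Rgs8 is the nearest on the chromosome and ends 40025 bases before Rgs16 starts, on the same strand. Its counts in young liver were 10, 19 and 27 before and 0, 1 and 0 at 48. In old liver they were 9, 16 and 24 before and 1, 1 and 0 at 48. It was a rare transcript throughout, with a mean of 4.45 CPM in young liver before, and its later groups in old liver at 96 and 120 held no count. Summed T and B cell markers, which bear on Rgs1, were 9.95 to 18.2 CPM before and 5.42 to 9.31 CPM at 48 in young liver, and 12.1 to 31.7 and 1.78 to 10.8 CPM in old liver, with Cd3d at 0 in young liver at 48. Their part in the values of Rgs1 was not tested.

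G protein alpha subunits are what RGS proteins act on, and of 12 listed genes 10 were tested. At 48 in old liver 3 were called lower, against 12% of all genes, namely Gnao1 (-1.39 ± 0.43), Gna14 (-1.1 ± 0.39) and the Gq subunit Gnaq (-0.44 ± 0.12). In young liver at 48, where 9.79% of all genes were called lower, the 1 called was Gna14 (-1.43 ± 0.38). The Gi subunits Gnai2 and Gnai3 did not pass at 48 at either age, with log2 changes of 0.43 ± 0.20 and -0.15 ± 0.14 in young and 0.27 ± 0.20 and 0.09 ± 0.14 in old liver.

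Of 26 receptors listed as coupling to Gi or Gq, 20 were tested. At 48, 2 were lower (9.79% of all genes) and none higher in young liver, and 5 were higher (12.1% of all genes) and 3 lower (12%) in old liver. Sucnr1, the succinate receptor, was lower at both ages, with a log2 change of -2.93 ± 0.52 in young and -3.81 ± 0.55 in old liver. S1pr2, a sphingosine 1-phosphate receptor (1.44 ± 0.33), and the vasopressin receptor Avpr1a (1.40 ± 0.41) were higher in old liver. Between ages at 48, 4 receptors were higher in old liver, led by the adrenergic receptor Adra1a (1.55 ± 0.38), against 4.42% of all genes.

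Most carbohydrate response genes were called lower at 48 in young liver, and 6 of 15 were in old liver. Of 16 listed genes 15 were tested. In young liver at 48, 11 of the 15 were called and all 11 were lower, where 9.79% of all genes were called lower. Since Rgs16 was chosen on that contrast, this count is a description. The count was 6 without young before replicate 1, young 48 replicate 1 or young 48 replicate 3, and 7 without young before replicate 2 or without the libraries with Y-linked transcripts. In old liver at 48, 6 were lower (12% of all genes were called lower) and 2 higher, and 5 of the 15 were called when the old groups alone were fitted and 4 with only the 2 groups compared. The list's median log2 change was -1.28 in young and -0.40 in old liver.

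Pklr, the liver pyruvate kinase and a classic ChREBP target, had 740.2, 539.2 and 504.1 CPM in young liver before and 105.4, 106.6 and 80.8 CPM at 48. In old liver it had 852.5, 777.2 and 853.1 CPM before and 278.3, 164.1 and 186.5 CPM at 48. Both ages were thus lower at 48 without overlap, by a log2 of -2.61 ± 0.36 in young and -1.98 ± 0.35 in old liver. Thrsp, a lipogenic gene that answers to carbohydrate, had log2 changes of -4.82 ± 0.73 in young and -6.72 ± 0.81 in old liver. Ketohexokinase (Khk) was lower by a log2 of -1.28 ± 0.21 in young and -1.79 ± 0.21 in old liver, and Mlxipl, which encodes ChREBP, by -0.97 ± 0.32 and -1.36 ± 0.33.

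Txnip, Arrdc4 and Klf10 were among the list members called lower in young liver at 48 and not called in old liver, and are described together after their values were seen. Txnip, an arrestin-like inhibitor of glucose uptake, had 350.1, 442.2 and 408.5 CPM before and 73.7, 101.9 and 56.7 CPM at 48 in young liver. In old liver it had 235.0, 377.5 and 525.4 CPM before and 160.9, 607.5 and 92.7 CPM at 48. The old libraries at 48 thus ran from below to above the range before, and replicate 2 was the highest of all 36 libraries. The changes at 48 were -2.37 ± 0.46 in young and -0.40 ± 0.43 (adjusted p = 0.525) in old liver. Its relative Arrdc4 changed by -1.78 ± 0.51 and -0.15 ± 0.49, and the transcription factor gene Klf10 by -2.63 ± 0.57 and -0.22 ± 0.53.

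The age difference itself was tested for these genes at 48. Of the 15 carbohydrate response genes 7 were higher in old than in young liver and none lower, with 4.42% of all genes called higher. They were Pklr (log2 difference 1.1 ± 0.34, adjusted p = 0.0337), Txnip (1.89 ± 0.45, 0.00622), Arrdc4 (1.87 ± 0.51, 0.0174), Klf10 (2.16 ± 0.57, 0.0131), Tkfc, Gckr and Fgf21. Most of these calls depended on old 48 replicate 2, without which 1 of the 15 was called and Txnip differed by 0.70 (adjusted p = 0.294), Klf10 by 1.49 (0.161), Arrdc4 by 1.18 (0.228) and Pklr by 1.24 (0.0514). The call for Pklr was also lost without any of young 48 replicates 1, 2 and 3 or old 48 replicate 1, at an adjusted p of up to 0.139, and those for Klf10 and Arrdc4 without young 48 replicate 1 or 3, at up to 0.0929. The count was also 2 without young 48 replicate 3, 4 without young 48 replicate 1, 3 without the libraries with Y-linked transcripts, and 0 when only the 2 groups were fitted, a fit that called 1 of 12208 genes in all. Rgs16 in the old libraries at 48 other than replicate 2 was 39.8 and 31.3 CPM, against at most 0.776 CPM in young liver. Since Rgs16 was chosen for those low young values, this gap is a description and was not tested.

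**Figure D3:**
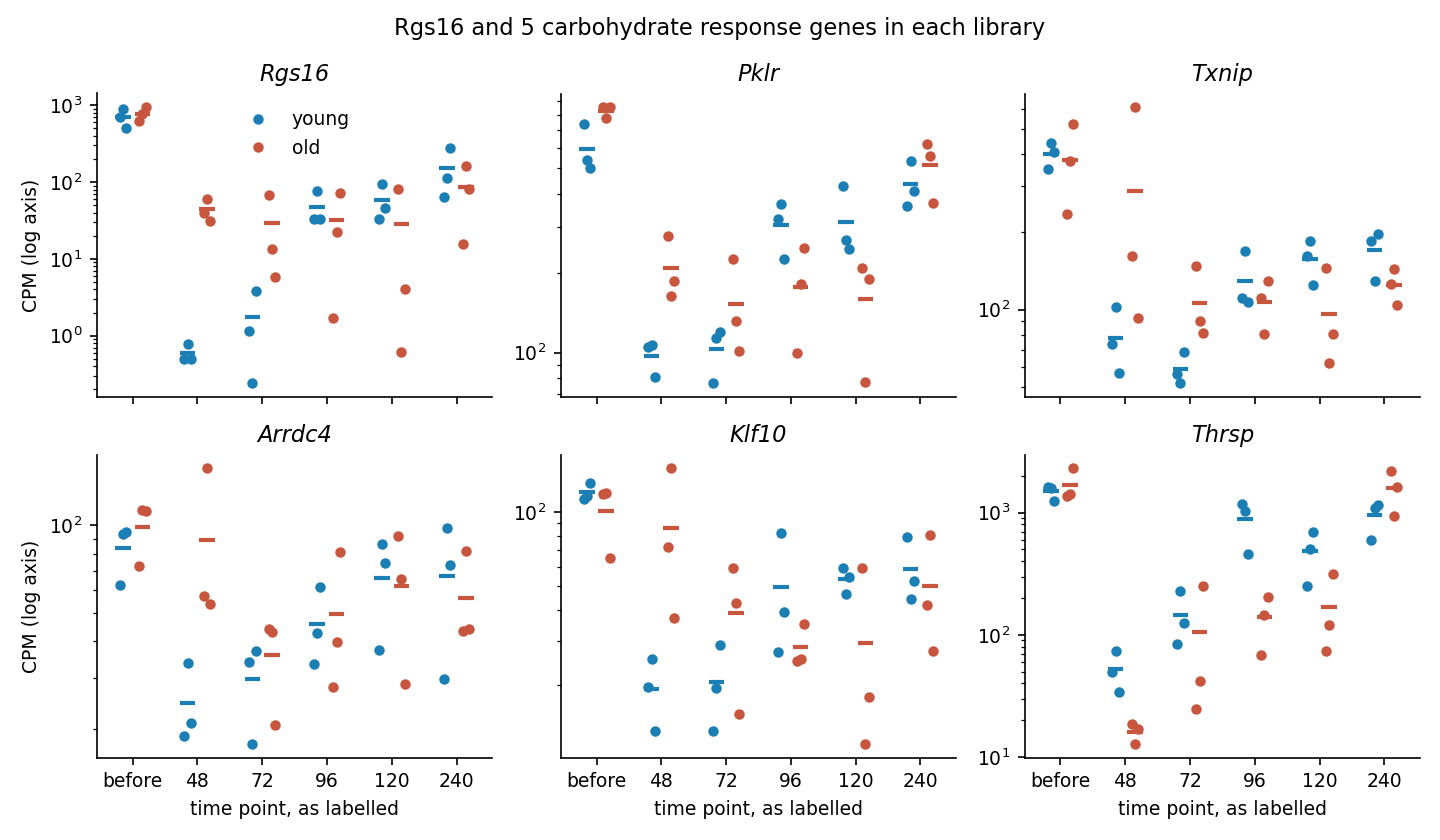
CPM on a log axis in each library for Rgs16 and 5 carbohydrate response genes, young in blue and old in red, with 3 points and a bar at the mean for each group, by labelled time point. Pklr at 48 has 80.8 to 106.6 CPM in young and 164.1 to 278.3 CPM in old liver, and old 48 replicate 2 stands out for Txnip at 607.5 CPM.

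The counts of called carbohydrate response genes at later time points were as follows. At 72, 10 were lower in young liver, where 17.4% of all genes were called, and 6 were lower and 1 higher in old liver, where 12.4% were called. At 96, 1 of the 15 was called in young liver (G6pc, lower), where 1.4% of all genes were called and 0.737% called lower, while 7 were lower in old liver, where 6.82% were called. At 120 the counts were 1 in young liver (0.581% of all genes) and 5 in old liver (3.87%). None was called at 240 with edgeR at either age, where 0.246% of all genes were called in young liver and 0.194% called lower. At an unadjusted p under 0.05 there were 2 in young and 3 in old liver at 240, and DESeq2 called 1 and 2. Pklr stood at 434.9 ± 90.7 CPM in young liver at 240, against 594.5 ± 127.4 CPM before. In the same libraries Rgs16 was at 21.3% of its mean before.

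Most genes of insulin-driven lipogenesis were called lower at 48 at both ages. All 17 listed genes were tested, and 13 were lower in young liver at 48, against 9.79% of all genes. At 48 in old liver 13 were lower (12% of all genes) and 1, Insig2, was higher, and 6 were called with only the 2 groups fitted. Pnpla3 (-4.74 ± 1.11 in young, -4.48 ± 0.87 in old) and Scd1, a fatty acid desaturase and the most abundant member (-4.16 ± 1.01 and -3.83 ± 0.99), had the largest of these changes in young liver. Srebf1, the lipogenic regulator driven by insulin, was lower at both ages and lower in old than in young liver at 48, by -1.48 ± 0.31 (adjusted p = 0.00209). Of the 17 genes 4 were called between ages at 48, against 11.2% of all genes, and 3 of them were higher in old liver. That count was 2 without young 48 replicate 1, 7 without old 48 replicate 3, 2 without the libraries with Y-linked transcripts and 0 with only the 2 groups fitted. That last fit called 1 of 12208 genes in all.

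Most fasting and PPARalpha genes were not called at 48 at either age. Of 26 tested genes, 6 were lower (9.79% of all genes) and none higher in young liver at 48, led by the phosphatidate phosphatase gene Lpin1 (-3.67 ± 0.71). In old liver at 48, 7 were higher (12.1% of all genes) and 2 lower (12%), led by the fasting hormone Fgf21 (5.17 ± 1.12) and Pdk4, a brake on glucose oxidation (3.82 ± 0.97). The young count was 3 without young before replicate 2 or any of young 48 replicates 1, 2 and 3. The old count of 9 was 5 without old before replicate 2 or old 48 replicate 2, and 2 with only the 2 groups fitted. Fgf21 in old liver had 2.11, 2.46 and 1.60 CPM before and 162.9, 21.9 and 40.3 CPM at 48, so all 3 libraries lay above those before. Pdk4 had 12.7, 27.9 and 107.0 CPM before and 128.5, 1933 and 31.3 CPM at 48, and without old 48 replicate 2 its change was 0.72 (adjusted p = 0.512). Between ages at 48, 6 of the 26 were higher in old liver (4.42% of all genes) and none lower, with 1 left without old 48 replicate 2, 2 without young 48 replicate 3, 10 without old 48 replicate 3 and 0 with only the 2 groups fitted. That last fit called 1 of 12208 genes in all.

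Most core clock genes were called at 48 at both ages. All 19 measured of 20 listed core clock genes were tested. In young liver at 48, 14 were called, against 21.9% of all genes, with Arntl (BMAL1) and Clock higher and 12 lower. In old liver 15 were called, against 24.1% of all genes, with 4 higher and 11 lower, and 2 with only the 2 groups fitted. Arntl, the activator of the clock, had 1.04, 0.497 and 1.21 CPM before and 10.3, 13.2 and 9.61 CPM at 48 in young liver. In old liver Arntl had 0.939, 1.56 and 1.83 CPM before and 6.45, 13.8 and 19.4 CPM at 48. Both ages were thus higher at 48 without overlap, by a log2 of 3.54 ± 0.62 in young and 3.17 ± 0.58 in old liver. Dbp, an output gene of the clock, had log2 changes of -4.11 ± 0.76 in young and -3.54 ± 0.73 in old liver.

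Between ages at 48, where the mean of Rgs16 was 75.1 times as high in old as in young liver, none of the 19 clock genes was called with edgeR. At an unadjusted p under 0.05 there were 4, DESeq2 called 1, and without old 48 replicate 1 or 3 edgeR called 2. The log2 difference was 0.27 ± 0.47 for Arntl and 0.29 ± 0.82 for Dbp. Averaged over 72 to 240, Arntl (1.69 ± 0.32) and Clock (0.49 ± 0.10) were higher in old liver and Per3, Nr1d2, Tef and Ciart were lower, 6 of 19 against 3.21% of all genes, while Rgs16 did not pass in that comparison. In young liver the called clock genes numbered 6 at 72 and none at 96, 120 and 240 (at 96, 2 at an unadjusted p under 0.05 and 0 by DESeq2), and in old liver 10, 6, 2 and 0 at 72, 96, 120 and 240. The shares of all genes called were 17.4%, 1.4%, 0.581% and 0.246% at these time points in young liver and 12.4%, 6.82%, 3.87% and 0.156% in old liver.

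**Figure D4:**
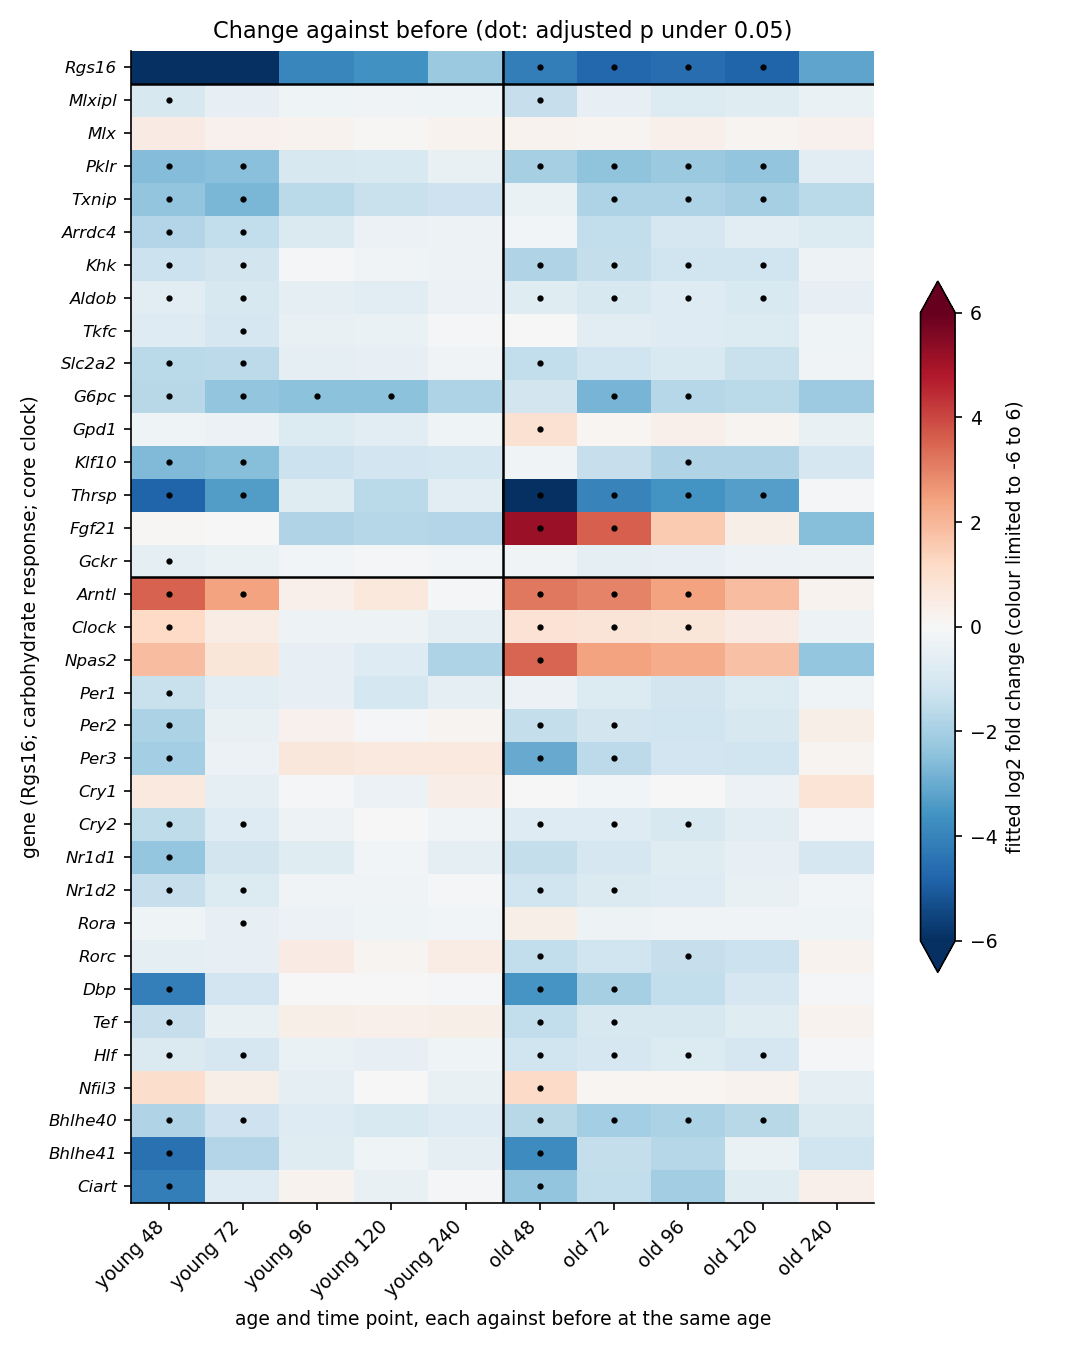
Fitted log2 change against before at the same age, at 5 time points in young and old liver (columns). Rows are Rgs16, 15 carbohydrate response genes and 19 core clock genes. Blue is lower and red higher, with colours limited at -6 and 6 and dots at an adjusted p under 0.05. Rgs16 was not tested against before in young liver. Rgs16 has the deepest fall in young liver at 48, while Arntl is higher at 48 at both ages, at 3.54 and 3.17.

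Of 14 tested clock output genes, 4 were lower and 1 higher in young liver at 48, where 21.9% of all genes were called, and 4 were lower in old liver, where 12% were called lower. Ppp1r3g, a glycogen-targeting subunit of protein phosphatase, had 225.5, 154.9 and 119.9 CPM before and 0.654, 1.55 and 0.739 CPM at 48 in young liver. In old liver Ppp1r3g had 44.6, 79.3 and 276.3 CPM before and 0.0, 6.08 and 0.614 CPM at 48. Ppp1r3g was thus below 1 CPM at 48 in 2 of the 3 old libraries, where Rgs16 was at 31.3 CPM or more. At 240 it was at 8.44 ± 4.04 CPM in young liver and 1.98 ± 1.14 CPM in old liver.

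Genes most like Rgs16 were ranked by Pearson's r of log2(CPM + 1), with no test. Over the 12 group means, the 5 highest of 13435 genes were Zfp280d (r = 0.973), Pgm2 (0.96), Adgrf5 (0.959), Gpbp1l1 (0.958) and Foxp2 (0.954). Zfp280d, the first, went from 36.0 ± 6.42 CPM in young liver before to 25.4 ± 1.30 CPM at 48, and Pgm2 from 145.8 ± 9.83 to 102.9 ± 13.6 CPM. Klf10 (0.951), Pklr (0.948) and Txnip (0.943) held ranks 6, 7 and 9. The median r of the carbohydrate response list was 0.79, of lipogenesis 0.747, of fasting 0.375 and of the core clock 0.597, against 0.0335 over all genes, and 12 of 15 carbohydrate response genes had an r over 0.5, as did 21.9% of all genes. The cell cycle list had a median of -0.88, with Mki67 at -0.925. The 12 means share the time course, so genes that follow it in any way score high or low.

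Deviations of the 36 libraries from their group means give a view without the time course. Among the 5 genes with the highest r were Chd3 (0.787), Spata13 (0.786), Fnip2 (0.743) and Abcc10 (0.74), with Spearman's rho at 0.781, 0.65, 0.582 and 0.655. Leaving out the 2 libraries farthest from the median lowered r to 0.696 for Chd3, which encodes a chromatin remodelling helicase, and to 0.706 for Fnip2. In old liver at 120 Chd3 had 328.2, 174.0 and 173.9 CPM, highest in the library where Rgs16 was highest, at 81.9, 0.607 and 4.09 CPM. At 240 in old liver the order of the libraries differed, with Chd3 at 176.4, 214.1 and 259.5 CPM and Rgs16 at 15.8, 161.7 and 81.8 CPM. Of the carbohydrate response genes Arrdc4 (0.599), Klf10 (0.587), Pklr (0.561) and Txnip (0.469) also varied with Rgs16 among libraries of a group, and the list's median was 0.272, against -0.00408 over all genes. The lipogenesis list had a median of -0.0679, fasting 0.298 and the core clock 0.15, with Per3 highest at 0.611. Leaving out old 120 replicate 1 left none of the 5 genes first named over group means, and 1 of the 5 over deviations, among the 5 highest. Without old 48 replicate 2 those counts were 1 and 2. The libraries share depth and any unrecorded conditions of their animals.

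**Figure D5:**
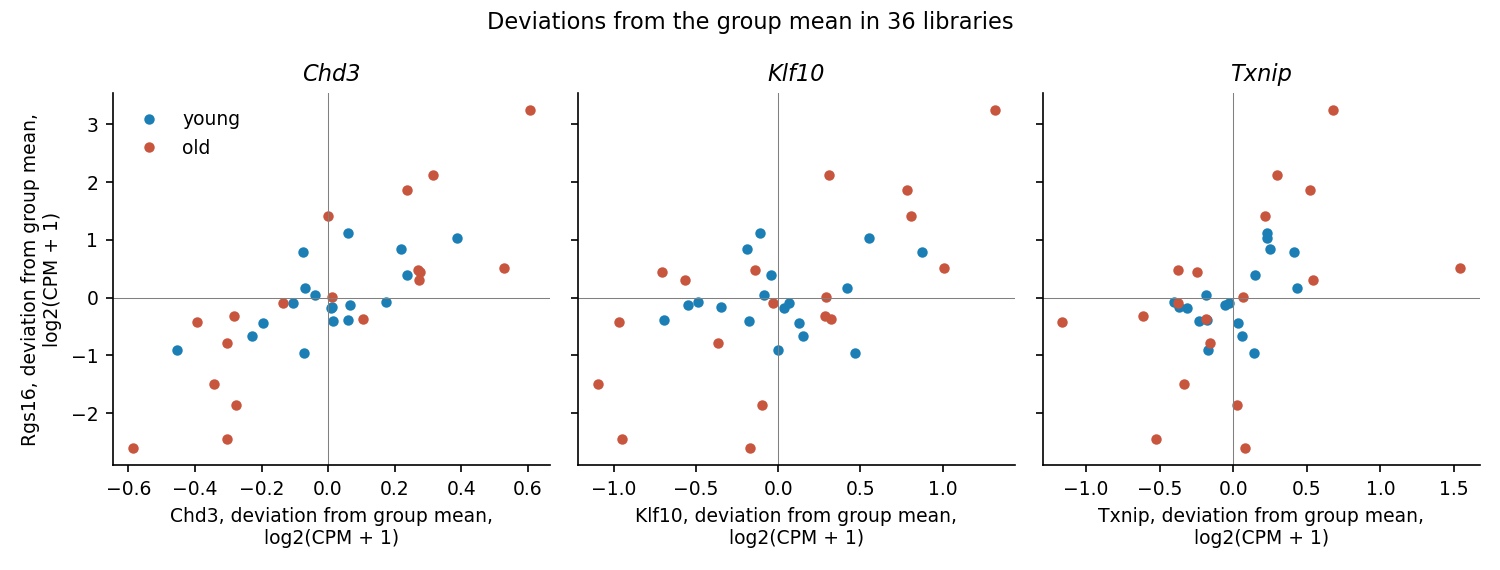
Deviation of Rgs16 from its group mean against that of Chd3, Klf10 and Txnip, all in log2(CPM + 1), for 36 libraries, young in blue and old in red. Pearson's r is 0.787 for Chd3, 0.587 for Klf10 and 0.469 for Txnip, and the widest deviations of Rgs16 are in old libraries.

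The number of cell cycle genes called differed among the time points at which Rgs16 was low, as did the share of all genes called. Of 20 cell cycle genes, 19 were higher in young liver at 48 and at 72, where 12.2% and 9.21% of all genes were called higher. None was called with edgeR in young liver at 96 (10 at an unadjusted p under 0.05, 3 by DESeq2), at 120 (3 and 0) or at 240 (0 and 0), nor in old liver at 240 (0 and 0). The shares of all genes called were also small there, at 1.4%, 0.581% and 0.246% in young liver and 0.156% in old liver at 240. In old liver 5 were higher at 48 (12.1% of all genes), 18 at 72 (6.54%), 17 at 96 (3.76%) and 3 at 120 (1.85%), and at 48 17 of the 20 were lower in old than in young liver (6.78% of all genes). Of 22 immediate early genes tested, 11 were lower (9.79% of all genes) and 2 higher (12.2%) in young liver at 48, and 8 were lower at 240 (0.194%).

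Rgs16 was also followed within the split by Y-linked transcripts, with 1 library against 2 in each group. In young liver at 48 Rgs16 had 0.493 CPM in the library with these transcripts and a mean of 0.633 CPM in the other 2. In old liver the library with them was the lowest of its group before, at 615.6 CPM against a mean of 856.8 CPM in the other 2. It was also the lowest at 72, 96 and 240, at 5.74, 1.72 and 15.8 CPM against means of 40.9, 46.8 and 121.7 CPM in the other 2. At 120 it had 4.09 CPM and lay between the other libraries, and at 48 it had 39.8 CPM against 46.1. In young liver the library with them was highest at 72 and 96 and lowest at 120 and 240. Without these 12 libraries the call at 96 in old liver was lost (adjusted p = 0.0621), and the age difference at 96 turned to 0.51, not called. A fit with a Y-linked term gave SEs of 0.948, 1.008, 1.015, 1.02 and 0.937 for old 48, 72, 96, 120 and 240 against before. Without that term the SEs were 1.124, 1.16, 1.155, 1.172 and 1.074. The part of this split in the spread was not itself tested.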

How the data were processed

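Total RNA from liver was depleted of ribosomal RNA and sequenced, with ERCC spike-in mixes that differed between ages, per the labels' protocols. The deposited values are whole-number counts per gene symbol, 1 table a library, made by the authors and not normalized. With 0 ERCC rows in the tables, spike-in scaling was left out. Per the submitters' processing notes, the tools were bcl2fastq 2.20.0, Trimmomatic 0.39, FastQC 0.11.9, STAR 2.7.5b, SAMtools 1.10, Picard 2.20.8, deepTools 3.5.0 and featureCounts, with GRCm38 and mm10 as builds. The annotation and the strand setting are not given in the sources used here.

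Counts were fitted with edgeR 4.0.16 in R 4.3.3: TMM scaling (factors 0.930 to 1.133), filterByExpr on the 12 groups, which left 13436 genes, a robust quasi-likelihood fit of all 36 libraries with 1 mean per group, Benjamini-Hochberg adjustment over all genes and a threshold of 0.05. The robust prior was adopted because it matched the counts of called genes in the earlier results. CPM uses TMM-scaled totals, and log2(CPM + 1) a pseudocount of 1. The SE of an edgeR log2 change is the size of that change divided by the square root of its quasi-likelihood F. It thus rests on a spread estimated over all groups in the fit. Lengths come from GENCODE M21 and the promoter from RefSeq, both on GRCm38. The fit was tested on simulated data with known changes in old liver at 48. It called 83.5% of the 4-fold and 54.5% of the 2-fold changes, and 6.9% of its 145 calls were false. Changes were put into 196 of 13232 genes there, while 3243 of 13436 were called in old liver at 48 against before. These rates were not tested for a gene as variable as Rgs16 (biological coefficient of variation 85.6%, common value 24.7%).

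Rgs16 and the gene lists were chosen with earlier results of these data known. No test was made of Rgs16 in contrasts that use the young libraries before or at 48. Named are Rgs16, any tested member of the RGS, G alpha, carbohydrate response and clock lists, of other lists up to 3 called genes with the largest change per direction and the most abundant member, and the 5 genes most like Rgs16 by each of 2 measures, of which 1 is not reported here. Ppp1r3g values, and the Y-linked split, were picked out after they had been seen. Alternatives were other scalings and filters, DESeq2 1.42.0, fewer groups in the fit, a replicate block, a term for Y-linked transcripts, leaving out libraries, and, added after seeing the data, a fit without the robust prior, fits of 2 groups for Rgs16 in old liver, and leaving out libraries for the likeness ranking. Replicates are described as biological. The p-values set a change against the spread between libraries, estimated over all groups in the fit.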

Additional observations from a re-analysis of the deposited data

How the results depend on the processing

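Scaling by median of ratios or total counts, the stricter filter, DESeq2, the Y-linked term and the fit without the robust prior changed no direction or call of the 12 tests of Rgs16. Fewer groups in the fit lost some or all of the old calls: with the old groups alone the changes at 48, 72, 96 and 120 were -4.12, -4.71, -4.58 and -4.75 and none was called, with 2 groups fitted -4.12 at 48 and -4.71 at 72 were called and -4.57 at 96 and -4.75 at 120 were not, and the F test over time in old liver gave 0.0630. Without Y-linked libraries the change at 96 was -4.19, not called, and the age difference at 96 reversed to 0.51. The F test over 72 to 240 in young liver gave 0.0615 without the filter on low counts and 0.0655 with the replicate block. Replicate numbers recur in every group but do not pair the samples: of 30 pairs of time points 7 had all same-numbered correlations over 0.1 (range -0.48 to 0.657). Beyond that F test the replicate block changed no call of Rgs16, and it moved the carbohydrate response genes called between ages over 72 to 240 from 0 to 1.

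Leaving out 1 library gave ranges of -4.42 to -3.94 for old 48, -6.33 to -4.24 for old 72, -5.9 to -4.06 for old 96, -8.22 to -4.18 for old 120 and -3.99 to -2.68 for old 240, 2.48 to 5.25, -1.85 to -0.02, -4.48 to -0.43 and -1.62 to -0.05 for old against young at 72, 96, 120 and 240, -0.43 to 0.72 for their average, adjusted p of 9.19e-05 to 0.00787 over time in old and 0.0399 to 0.226 over 72 to 240 in young liver, and a young ratio of means of before over 48 of 1040 to 1440, against 1207. No paired analysis was possible for that ratio because it comes from no test. With 2 groups fitted, 1 of 12208 genes was called between ages at 48, and 221 of 12328 in old liver at 48 against before. Called carbohydrate response genes were 6 to 10 in young at 48 (7 without Y-linked libraries), 6 to 8 in old at 48 (4 with 2 groups fitted, 5 with the old groups alone) and 1 to 7 between ages (3 without Y-linked libraries, 0 with 2 groups fitted). For lipogenesis they were 12 to 13, 13 to 14 (6 with 2 groups fitted) and 2 to 7 (2 without Y-linked libraries, 0 with 2 groups fitted). For the fasting list the count of 6 in young at 48 was 3 with total counts or without the filter, 2 without Y-linked libraries and 11 with 2 groups fitted. For the clock they were 12 to 14, 11 to 13 (2 with 2 groups fitted) and 0 to 2 (1 without Y-linked libraries, 1 by DESeq2). Of the 5 genes named as most like Rgs16, 0 to 5 stayed among the 5 highest over group means and 1 to 5 over deviations when a library was left out, 2 and 1 with Spearman's rho, and 1 and 1 without Y-linked libraries. With total counts in place of TMM, the higher share of all calls went from 55.4% to 69.9% in young at 48, from 53.0% to 72.3% in old at 72, from 55.1% to 70.2% in old at 96, from 47.7% to 61.2% in old at 120 and from 9.52% to 22.2% in old at 240, and the median of all genes in old at 72 was 0.11. Depth limits what can be said of libraries with 4 counts or fewer of Rgs16.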
